A study of Homo sapiens with 9 samples.

Results

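The siWFDC21P-2 libraries did not form 1 group. Replicate 1 lay next to the control library siNC replicate 3, while replicates 2 and 3 lay next to each other, and the gene content of that difference is described here. The comparison takes 4 of the 9 libraries of the series: siWFDC21P-2 replicates 2 and 3, called the distant pair, against siNC replicate 3 and siWFDC21P-2 replicate 1, called the near-control pair. The pairs were chosen by the correlation of the libraries over all genes, so the differences between them are a description of 2 libraries against 2, and no p-value is attached to them.

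All libraries are labelled as BT549, a mesenchymal-like line from a triple-negative human breast tumour, grown in RPMI medium with serum and insulin. Cells in the siNC group received a control siRNA, and those in the siWFDC21P-1 and siWFDC21P-2 groups received 1 of 2 siRNAs against WFDC21P, a transcribed pseudogene of the WAP domain family. Each group held 3 libraries, each transfection used 5 µl of a 10 µM siRNA stock, and cells were harvested after 48 h, with 1 µg of RNA per library. The labels do not say whether the replicates were transfected or grown separately, and the library names of the siWFDC21P-2 samples carry numbers whose meaning is not given.

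Cells under proteotoxic, endoplasmic reticulum or oxidative stress switch on largely separate sets of genes. Heat shock factor induces chaperones such as the HSP70 family, the unfolded protein response and the integrated stress response act through XBP1, ATF6 and ATF4 to raise ER chaperones and amino acid genes, and NRF2 raises antioxidant genes. Stressed cells often slow division and secrete inflammatory cytokines, while deposition of collagen and other matrix proteins is a trait of mesenchymal cells that is promoted by TGF-beta signalling.

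Library depth did not separate the pairs. The FPKM denominators (the unit of the deposited values, fragments scaled by exon length and by library size) corresponded to 16298986 and 17393691 reads in the near-control pair and 16734428 and 17184435 in the distant pair. Over the 12308 genes whose mean in the 4 libraries reached 1 FPKM, of 29104 listed, Pearson's r of log2(FPKM + 1) was 0.981 within the near-control pair and 0.982 within the distant pair. Across the pairs it was 0.908 to 0.925. With the other 5 libraries (all 3 of siWFDC21P-1, with siNC replicates 1 and 2) r was only 0.658 to 0.728. Those 5 libraries had another identity: CDH2, the mesenchymal N-cadherin, was at 14.7 to 18.1 FPKM in the 4 libraries and at or near 0 in the 5. EPCAM, an epithelial surface protein, was at 209 and 228 FPKM in siNC replicate 2 and siWFDC21P-1 replicate 3, and GSTP1, a glutathione transferase, was at or near 0 in siNC replicate 1 and siWFDC21P-1 replicates 1 and 2. All 9 carry the BT549 label, and results that set the 4 libraries beside the other 5 rest on libraries that stand apart.

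The 4 libraries carried the mesenchymal profile of the label. VIM, the intermediate filament vimentin, was at 310 and 309 FPKM in the near-control pair and at 162 and 178 FPKM in the distant pair. Of 16 epithelial markers, 9 were under 1 FPKM in all 4 libraries. The most abundant epithelial marker was the keratin KRT7, at 26.1 and 24.7 FPKM in the near-control pair and 8.64 and 11.03 FPKM in the distant pair. Of 4 tested epithelial markers 2, KRT7 and the claudin CLDN7, were at least 2-fold lower in the distant pair and 0 higher. KRT8 was higher there without overlap, at 4.32 and 3.99 FPKM in the near-control pair against 5.44 and 5.21. CDH1, with a mean below 1 FPKM, was at 0.328 and 0.242 against 1.16 and 0.886 FPKM. The median of the tested markers was -0.47, but 0.31 without siNC replicate 3. Of the leukocyte and endothelial markers, 8 of 10 in each list were under 1 FPKM in all 4 libraries. Of the 4 exceptions CORO1A and ROBO4 stayed at or below 1.1 FPKM: CORO1A was at 0.391 and 0.272 FPKM in the near-control pair and 1.03 and 0.980 in the distant pair, and ROBO4 at 0.715 and 0.466 against 0.552 and 1.10 FPKM. The other 2 differed between the pairs: the monocyte co-receptor CD14 was at 1.11 and 1.98 FPKM in the near-control pair and 6.97 and 8.7 in the distant pair, and the angiopoietin receptor TEK at 0.192 and 0.168 against 1.98 and 4.94.

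The targeted transcript was measured first. WFDC21P (ENSG00000261040; hg38, chromosome 17, 60083566 to 60091885, minus strand) had 6.87 FPKM in siNC replicate 3, against 4.13, 3.32 and 2.12 FPKM in siWFDC21P-2 replicates 1, 2 and 3. These values rest on 123, 79, 61 and 40 reads. Relative to siNC replicate 3 the 3 siWFDC21P-2 libraries held 60.2% (95% exact binomial interval 44.8 to 80.5), 48.3% (34.9 to 66.2) and 30.8% (21.03 to 44.4) of its level, where the intervals cover counting error only. Replicate 1 thus had the highest level of the 3, but its interval overlapped that of replicate 2. Over the labelled groups, log2(FPKM + 1) of WFDC21P was 2.04 ± 0.37 (SD, n = 3) with siWFDC21P-2 and 1.73 ± 1.42 (SD, n = 3) with siNC. That difference did not exceed the spread between replicates (exact two-sided permutation test, p = 0.8, where 3 against 3 cannot go below 0.1). The siNC group here includes replicates 1 and 2, which stand apart from the 4 libraries. Its SD is therefore not a spread between like replicates, and the test cannot decide whether the siRNA lowered WFDC21P.

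A gene was called apart when the lowest value of one pair was at least 1 log2 unit, or 2-fold, above the highest value of the other on the log2(FPKM + 1) scale. By that measure 332 of the 12308 genes (2.7%) were higher in the distant pair and 247 (2.01%) were lower. The 2 libraries of a pair differed by that much in 166 genes in the near-control pair and 163 in the distant pair, whereas 1114 to 1313 genes did so for a library of one pair against a library of the other. Merely not overlapping was common, with 5051 genes (41.0%) higher and 3830 (31.1%) lower in both libraries of the distant pair, so counts of that kind are to be read against these shares. Counts of list members at least 2-fold apart are likewise to be read against 2.7% higher and 2.01% lower. The threshold has genes close to it on both sides: LDHA at a gap of 0.9994 lies just outside and CDH3 at 1.002 just inside among higher genes, with MDK at 0.9923 and ZNF853 at 1.003 among lower genes. The median difference over all tested genes was 0.06 on the log2 scale, and 27 higher and 35 lower genes had a gap of at least 2 log2 units.

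**Figure D1:**
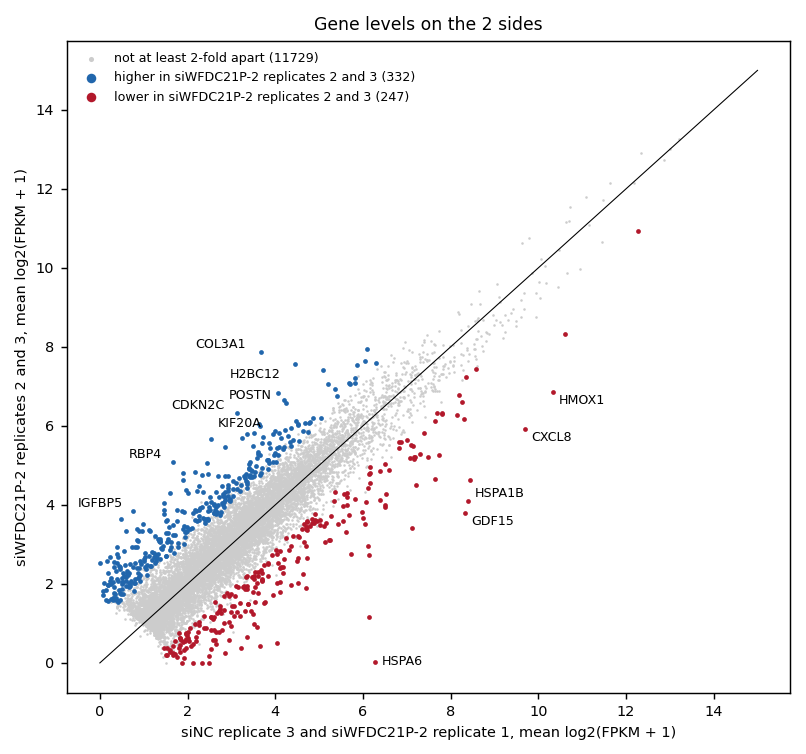
Mean log2(FPKM + 1) of each of 12308 genes in the near-control pair (x axis) and the distant pair (y axis). Blue points are the 332 genes at least 2-fold higher and red points the 247 at least 2-fold lower in both libraries of the distant pair, grey points the others, and the line marks equal levels. HSPA6, at 0.0252 and 0.0245 FPKM in the distant pair, is the red point farthest below the line.

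Promoter sequences of genes on which the description turns are given first, because groups of these genes differed together. They are RefSeq sequences (GRCh38.p14) from 250 bases before to 50 bases after each gene's start, read 5′ to 3′ on the gene's strand, and capitals mark matches to the named motif on either strand. HSPA6 (chr1:161524290-161524589, plus strand) and HERPUD1 (chr16:56931892-56932191, plus strand) stand for the stress genes, with the heat shock element (GAANNTTC or TTCNNGAA) and the amino acid response element (TGATGNAA) in capitals.

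HSPA6: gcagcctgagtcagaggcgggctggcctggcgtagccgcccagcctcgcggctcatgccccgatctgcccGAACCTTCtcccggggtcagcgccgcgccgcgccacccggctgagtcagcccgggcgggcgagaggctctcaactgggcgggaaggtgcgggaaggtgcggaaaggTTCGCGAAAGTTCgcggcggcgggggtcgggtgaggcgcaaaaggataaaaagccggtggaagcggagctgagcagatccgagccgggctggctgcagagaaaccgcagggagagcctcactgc

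HERPUD1: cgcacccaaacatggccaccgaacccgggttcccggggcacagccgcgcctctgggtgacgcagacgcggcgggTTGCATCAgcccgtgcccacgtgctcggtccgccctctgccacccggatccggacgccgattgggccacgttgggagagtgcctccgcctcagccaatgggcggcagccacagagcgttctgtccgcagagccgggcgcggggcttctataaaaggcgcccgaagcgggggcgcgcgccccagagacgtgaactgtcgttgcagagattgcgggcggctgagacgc

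CXCL8 (chr4:73740319-73740618, plus strand) and IFI6 (chr1:27672143-27672442, minus strand) stand for the cytokine and interferon response genes, with an NF-kB site (GGGNNTTTC or GGAATTTCC) and the interferon-stimulated response element (GAAANNGAA) in capitals.

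CXCL8: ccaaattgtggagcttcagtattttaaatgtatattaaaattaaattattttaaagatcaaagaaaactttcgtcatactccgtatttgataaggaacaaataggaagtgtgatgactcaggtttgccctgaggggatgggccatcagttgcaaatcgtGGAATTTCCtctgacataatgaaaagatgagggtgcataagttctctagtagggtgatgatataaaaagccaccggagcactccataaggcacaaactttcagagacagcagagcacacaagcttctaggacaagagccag

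IFI6: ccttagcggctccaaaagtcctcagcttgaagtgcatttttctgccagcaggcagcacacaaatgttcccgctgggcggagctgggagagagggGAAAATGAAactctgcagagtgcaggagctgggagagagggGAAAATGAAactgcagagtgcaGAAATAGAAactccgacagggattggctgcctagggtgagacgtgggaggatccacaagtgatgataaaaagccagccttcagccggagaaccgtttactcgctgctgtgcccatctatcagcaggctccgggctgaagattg

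KIF20A (chr5:138178862-138179161, plus strand) and H2BC12 (chr6:27146809-27147108, minus strand) stand for mitotic and histone genes that were higher in the distant pair, with CCAAT boxes in capitals.

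KIF20A: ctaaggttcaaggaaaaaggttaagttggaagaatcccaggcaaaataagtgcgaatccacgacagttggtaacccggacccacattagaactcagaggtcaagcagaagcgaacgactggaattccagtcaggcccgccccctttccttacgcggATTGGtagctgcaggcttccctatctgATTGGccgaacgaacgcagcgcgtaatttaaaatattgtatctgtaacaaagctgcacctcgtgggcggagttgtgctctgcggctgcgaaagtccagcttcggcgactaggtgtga

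H2BC12: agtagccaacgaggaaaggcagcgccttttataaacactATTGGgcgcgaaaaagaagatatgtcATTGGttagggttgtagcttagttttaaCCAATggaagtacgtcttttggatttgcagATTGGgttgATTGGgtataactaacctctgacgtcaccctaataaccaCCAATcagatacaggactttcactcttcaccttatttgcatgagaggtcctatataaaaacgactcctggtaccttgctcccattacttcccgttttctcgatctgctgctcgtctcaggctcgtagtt

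The motif shares were counted over 27305 promoters of the same length. A heat shock element match was present in 13.7% of all promoters and in 9 of 22 listed heat shock genes (40.9%), 3 of which were among the 4 that were apart. The amino acid response element was present in 3.67% of all promoters, in 7 of 44 genes of the unfolded protein and integrated stress response list (15.9%) and in 5 of the 22 that were apart. NF-kB matches were found in 5.03% of all promoters and in 11 of 20 cytokine and chemokine genes, and interferon-stimulated response element matches in 8.29% and in 24 of 37 interferon response genes. CCAAT boxes occurred in 35.7% of all promoters, in 34 of 44 G2/M and mitosis genes and in 9 of the 10 of these that were apart. Among tested genes, CCAAT boxes were in 40.4% of the promoters of higher genes and 47.4% of those of lower genes, against 37.0% of all tested genes. The cell cycle genes homology region (TTTGAA) was in 31 of 44 G2/M and mitosis genes and 15.4% of all promoters. Among tested genes it was in 19.3% of higher genes and 6.49% of lower genes, against 9.48% of all. Over all tested genes, heat shock element matches were in 9.81% and amino acid response element matches in 1.58%. The AP-1 site (TGANTCA) was in 7.76% of all promoters, in 1 of 26 immediate early and AP-1 genes (3.85%) and in 0 of the 3 of these that were apart. These are matches of letters, not bound sites.

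Heat shock genes were high in the near-control pair, with siNC replicate 3 above siWFDC21P-2 replicate 1. HSPA6 (ENSG00000173110; hg38, chromosome 1, 161524540 to 161526910), a strictly inducible HSP70 chaperone, was at 118 and 49.4 FPKM in siNC replicate 3 and siWFDC21P-2 replicate 1, and at 0.0252 and 0.0245 FPKM in replicates 2 and 3. The near-control values rest on 4544 and 2038 reads and the distant values on 1 read each, a ratio of 3313 between the pairs (95% counting interval 917 to 27363). It was the only gene at 5 FPKM or more in both libraries of one pair and at most 0.1 FPKM in both of the other. In the remaining 5 libraries HSPA6 was at 0 to 0.213 FPKM, so the distant pair shared the low level and the near-control pair stood apart. In bulk RNA, fewer cells expressing a gene and less RNA per cell cannot be told apart.

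HSPA1A and HSPA1B, the main inducible HSP70 genes, followed the same order. HSPA1A was at 495 and 240 FPKM in the near-control pair and 22.5 and 25.5 FPKM in the distant pair, and HSPA1B at 484 and 231 against 16.8 and 15.6 FPKM. The coding sequences of these 2 genes are nearly identical, so the split of reads between them is uncertain. DNAJB1, the HSP40 partner of HSP70, was at 294 and 154 FPKM in the near-control pair and 37.6 and 37.9 in the distant pair. Outside the list, ZFAND2A, an arsenite- and heat-inducible regulator of the proteasome, was at 31.9 and 19.5 against 2.46 and 2.98 FPKM.

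Of 23 tested heat shock genes, 4 were at least 2-fold lower and 0 higher in the distant pair, and the median difference was -0.50 against 0.06 over all tested genes. Without overlap 18 were lower and 4 higher, where 31.1% and 41.0% of all tested genes were. The 4 that were higher included co-chaperones: AHSA1, which stimulates HSP90, was at 33.8 and 35.01 FPKM in the near-control pair and 41.4 and 47.3 in the distant pair. DNAJA1 was at 155 and 135 against 186 and 180 FPKM. The difference within the near-control pair had the same direction as that between the pairs, with a list median of -0.16 for siWFDC21P-2 replicate 1 minus siNC replicate 3.

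Genes of the unfolded protein and integrated stress responses were mostly lower in the distant pair. Of 48 tested, 24 were at least 2-fold lower (2.01% of all tested genes were) and 0 were higher, and the median difference was -1.26. Without overlap 42 were lower and 1 was higher, where 31.1% and 41.0% of all tested genes were. HERPUD1, an ER membrane protein of the degradation machinery, was at 145 and 133 FPKM in the near-control pair and at 10.1 and 9.29 FPKM in the distant pair, 14.3-fold higher in the first (95% counting interval 13.6 to 15.03). DDIT3, which encodes the stress factor CHOP, was at 53.2 and 51.7 against 6.89 and 4.73 FPKM. TRIB3, a CHOP and ATF4 target that inhibits AKT, was at 68.2 and 71.6 against 4.56 and 7.03 FPKM.

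For these 3 genes the near-control libraries lay close to each other, whereas for the HSP70 genes siNC replicate 3 was clearly above siWFDC21P-2 replicate 1. SESN2, a stress-induced inhibitor of mTORC1, was at 84.6 and 54.4 FPKM in the near-control pair and 6.71 and 6.94 FPKM in the distant pair. DDIT4, another mTORC1 inhibitor, was at 156 and 137 against 23.3 and 20.4 FPKM. ATF3, a stress-induced bZIP factor, was at 23.8 and 20.2 against 2.48 and 3.73 FPKM. The only listed gene higher without overlap was the serine synthesis enzyme PSPH, at 11.95 and 11.99 against 14.7 and 16.01 FPKM.

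Both arms of the response were represented. HSPA5, the ER chaperone BiP, was at 1766 and 1379 FPKM in the near-control pair and 354 and 285 FPKM in the distant pair. ASNS, the asparagine synthetase induced by ATF4, was at 47.6 and 47.7 against 7.14 and 11.2 FPKM, and XBP1 at 96.3 and 82.3 against 27.4 and 36.8 FPKM. Not every ER chaperone of the list was apart. CALR, at 525.5 and 594.9 against 605.4 and 513.5 FPKM, and PDIA4, at 119.5 and 102.5 against 109.4 and 92.13 FPKM, overlapped between the pairs. HSP90B1 was lower without overlap, at 381.9 and 372.4 against 240.5 and 199.3 FPKM, but not by 2-fold at the nearest values. HSPA5, ASNS, XBP1, CALR, PDIA4 and HSP90B1 were picked after their values had been seen. GDF15, a secreted stress hormone of the TGF-beta family, had the second-largest gap of all protein-coding genes that were lower: 384 and 264 FPKM against 14.5 and 11.2 FPKM, 25.1-fold (95% counting interval 23.5 to 26.8).

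Oxidative stress genes were split. HMOX1 (ENSG00000100292; hg38, chromosome 22, 35380361 to 35394214), which degrades haem, was at 1572 and 1048 FPKM in the near-control pair and at 151 and 86.8 FPKM in the distant pair, 10.99-fold (95% counting interval 10.8 to 11.2). The other 5 libraries were between 7.86 and 24.0 FPKM, so the distant pair remained above them. SLC7A11, the cystine transporter shared with the ATF4 pathway, was at 15.8 and 13.01 against 2.39 and 2.17 FPKM, and OSGIN1 at 17.998 and 14.7 against 2.90 and 3.35 FPKM. FTL, the ferritin light chain, was at 4979 and 4989 against 2029 and 1892 FPKM.

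A smaller number of NRF2 target genes was higher in the distant pair, and below the share over all genes. The epoxide hydrolase EPHX1 was at 35.6 and 49.6 FPKM in the near-control pair and 107 and 84.6 in the distant pair. Of 29 tested members, 6 were at least 2-fold lower and 0 higher, 15 were lower (31.1% over all tested genes) and 6 higher (41.0%) without overlap, and the median was -0.39. With no filter on low values the median was -0.25. The 4 tested metallothionein genes had none apart.

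Autophagy and apoptosis genes were at least 2-fold lower more often than all tested genes, although the medians of their lists were small. MAP1LC3B, the autophagosome protein LC3B, was at 70.0 and 57.2 FPKM in the near-control pair and 11.4 and 12.1 in the distant pair, and the cargo receptor SQSTM1 at 226 and 184 against 77.1 and 81.5 FPKM. Over the 26 tested autophagy and lysosome genes 3 were lower (2.01% over all tested genes) and the median was 0.02. BBC3, the pro-apoptotic PUMA, was at 5.90 and 5.95 against 0.695 and 0.860 FPKM. Of 22 tested apoptosis regulators 2 were higher (2.7% over all tested genes) and 2 lower (2.01%), with a median of -0.08. Of 21 tested p53 targets 1 was lower, and CDKN1A was at 23.8 and 11.7 against 7.52 and 10.1 FPKM, which do not overlap but differ by less than 2-fold at the nearest values.

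**Figure D2:**
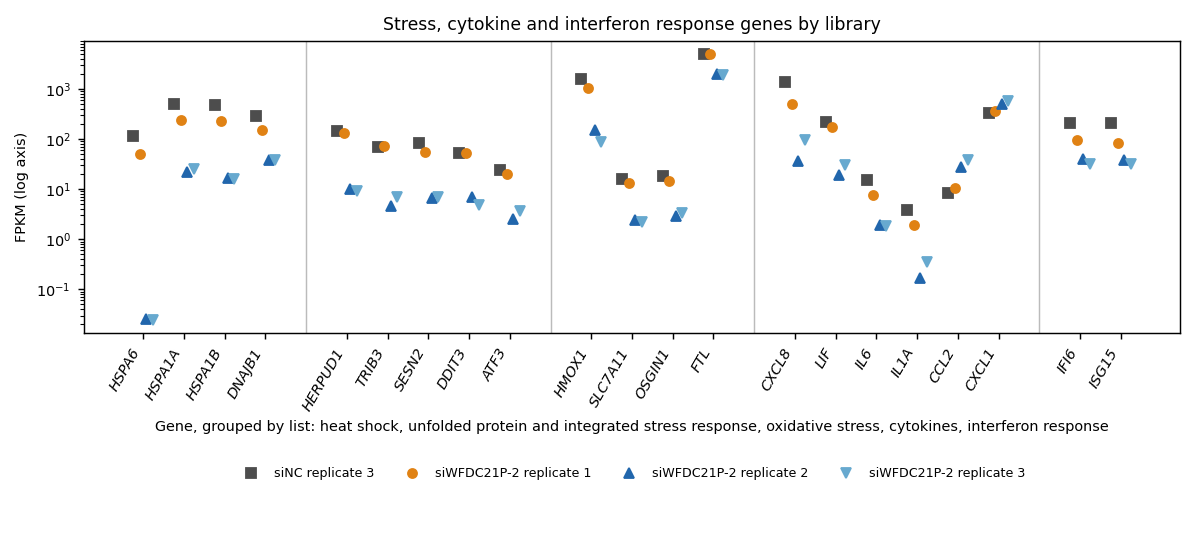
FPKM of stress, cytokine and interferon response genes on a log axis, with 1 symbol for each of the 4 libraries and grey lines between the gene groups. The blue triangles (distant pair) lie below the square and circle (near-control pair) for every gene shown except CCL2 and CXCL1, and the square lies above the circle for HSPA6, CXCL8, IFI6 and ISG15.

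Cytokine genes went both ways. CXCL8 (ENSG00000169429; hg38, chromosome 4, 73740506 to 73743716), the neutrophil chemokine IL-8, was at 1372 and 502 FPKM in the near-control pair and at 36.2 and 97.4 FPKM in the distant pair, 13.7-fold (95% counting interval 13.3 to 14.1). The libraries differed by more than 2-fold within each pair, and the pairs did not overlap. LIF, a cytokine of the IL-6 family, was at 224 and 177 against 19.6 and 30.3 FPKM, and IL6 itself at 14.9 and 7.59 against 1.94 and 1.86 FPKM. IL1A, an alarmin, was at 3.90 and 1.92 against 0.169 and 0.356 FPKM.

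CCL2, the monocyte chemokine, was the 1 cytokine gene at least 2-fold higher in the distant pair, at 27.1 and 37.4 FPKM against 8.53 and 10.7 FPKM. CXCL1 and CXCL6, neighbours of CXCL8 in the chemokine cluster on chromosome 4, were also higher there: CXCL1 was at 505 and 577 against 338 and 362 FPKM, and CXCL6 at 36.4 and 29.4 against 17.5 and 21.5 FPKM. Of 15 tested cytokines and chemokines 4 were at least 2-fold lower (2.01% over all tested genes) and 1 higher (2.7%), with a median of -0.77. A further 13 members were listed below the minimum of 1 FPKM. The median of the list was -0.46 without siNC replicate 3, -0.25 with a minimum of 5 FPKM and -0.18 with no minimum.

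NF-kB pathway genes showed smaller differences. IRAK2, an adaptor of IL-1 and Toll-like receptors, was at 66.4 and 71.5 FPKM in the near-control pair and 26.1 and 27.3 in the distant pair, and the prostaglandin synthase PTGS2 at 18.3 and 16.6 against 3.69 and 7.07 FPKM. NFKB1, the p50 subunit, was at 7.14 and 6.73 against 8.94 and 10.4 FPKM. Of 22 tested members 2 were lower and 0 higher, with a median of -0.30, which was -0.17 without siWFDC21P-2 replicate 2. Among 27 tested immediate early and AP-1 genes 3 were lower and 0 higher, with a median of -0.70, which was -0.44 with no filter on low values. FOS was at 4.21 and 3.43 against 1.05 and 0.845 FPKM, and the ERK phosphatase DUSP6 at 23.2 and 16.5 against 6.41 and 7.30 FPKM.

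The type I interferon response differed within the near-control pair as well as between the pairs. IFI6, an interferon-induced mitochondrial and ER protein, had 213 FPKM in siNC replicate 3, then 95.2, 40.6 and 32.5 FPKM in siWFDC21P-2 replicates 1, 2 and 3. ISG15, a ubiquitin-like protein, was at 210 FPKM and then 85.3, 38.4 and 32.4 FPKM. Over 35 tested genes the median was -0.71 for siWFDC21P-2 replicate 1 minus siNC replicate 3, beside -0.61 between the pairs. Of these genes 2, IFI6 and ISG15, were at least 2-fold lower in the distant pair and 0 higher, and these 2 differed more between the pairs (-1.94 and -1.90) than within the near-control pair (-1.15 and -1.29). Without overlap 23 were lower and 3 higher, where 31.1% and 41.0% of all tested genes were. The median between the pairs was -0.22 without siNC replicate 3, -0.39 without siWFDC21P-2 replicate 3 and -0.96 without siWFDC21P-2 replicate 1.

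Matrix genes were higher in the distant pair. COL3A1 (ENSG00000168542; hg38, chromosome 2, 188974320 to 189012746), the chain of type III collagen, was at 5.75 and 23.0 FPKM in the near-control pair and at 242 and 221 FPKM in the distant pair, a ratio of 16.1 between the mean levels. Whole reads could not be recovered for COL3A1, so no counting interval is given. siWFDC21P-2 replicate 1 was well above siNC replicate 3 for this gene, but far below the distant pair. COL1A1, an alpha chain of type I collagen, was at 4.24 and 4.89 against 31.7 and 22.3 FPKM, and COL5A1, of type V collagen, at 5.71 and 14.9 against 56.3 and 53.2 FPKM.

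Of 16 tested collagen genes, 6 were at least 2-fold higher and 0 lower, 12 were higher without overlap (41.0% over all tested genes) and 0 lower (31.1%), and the median was 0.99, which was 0.52 with no filter on low values. Within the near-control pair the same list had a median of 0.40 for siWFDC21P-2 replicate 1 minus siNC replicate 3. Enzymes that modify collagen differed less, with 3 of 21 at least 2-fold higher (2.7% over all tested genes). The lysyl hydroxylase PLOD2 was at 9.96 and 12.5 against 39.8 and 36.0 FPKM, and the crosslinking oxidase LOXL1 at 15.5 and 11.9 against 48.3 and 44.1 FPKM. 

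Secreted glycoproteins gave 10 of 37 tested genes at least 2-fold higher (2.7% over all tested genes) and 0 lower, with a median of 0.59. POSTN, the adhesive protein periostin, was at 14.8 and 21.5 FPKM in the near-control pair and 99.8 and 89.7 FPKM in the distant pair. MGP, the calcification inhibitor matrix Gla protein, was at 3.81 and 5.90 against 54.5 and 45.8 FPKM, and IGFBP5, which binds insulin-like growth factors, at 0.400 and 0.411 against 14.6 and 9.09 FPKM. The basement membrane pair nidogen 1 and nidogen 2 went opposite ways: NID2 was at 1.16 and 1.19 against 9.41 and 9.15 FPKM, and NID1 at 14.4 and 12.6 against 5.45 and 6.91 FPKM.

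Proteases and their inhibitors were mixed, with 2 of 23 higher and 3 lower, where 2.7% and 2.01% of all tested genes were. MMP2, a gelatinase that cleaves type IV collagen, was at 3.83 and 4.29 FPKM in the near-control pair and 29.3 and 23.3 in the distant pair. MMP14, the membrane protease that activates pro-MMP2, was at 220 and 228 against 71.9 and 85.9 FPKM, and the collagenase MMP1 at 26.3 and 30.8 against 9.68 and 11.9 FPKM.

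TGF-beta and BMP genes were more often higher than lower. Of 25 tested genes 9 were at least 2-fold higher (2.7% over all tested genes) and 1 lower (2.01%). Without overlap 15 were higher and 6 lower, where 41.0% and 31.1% of all tested genes were. The median was 0.66, which was 1.05 without siWFDC21P-2 replicate 3. Among ligands, BMP4 was at 7.76 and 4.94 FPKM in the near-control pair and 40.0 and 46.4 in the distant pair, and TGFB2 at 0.941 and 0.915 against 4.65 and 4.63 FPKM. Among the targets, the helix-loop-helix inhibitors ID4 and ID2 were at 2.22 and 3.29 against 38.1 and 19.1 FPKM and at 4.76 and 6.21 against 21.2 and 30.2 FPKM. BAMBI, a decoy receptor that dampens the pathway, was at 5.75 and 6.78 against 24.9 and 26.0 FPKM.

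The fibroblast marker list overlaps the matrix lists, so they are not separate observations. Its summed level was 126 and 181 FPKM in the near-control pair and 742 and 673 FPKM in the distant pair, and 5 of the 6 tested members were at least 2-fold higher. All 5 (COL1A1, COL1A2, COL3A1, POSTN and the proteoglycan LUM) are also members of the matrix lists, and the tested marker outside those lists, THY1, was not apart by 2-fold. Other markers differed in level: DCN was at 0 to 0.0181 FPKM in the 4 libraries, PDGFRB at 0.0322 to 0.0921 FPKM and FAP at 0.412 to 0.819 FPKM, while THY1 was at 43.6 and 49.5 FPKM against 90.3 and 110 FPKM. PDGFRA reached 1 FPKM in at least 1 of the 4 libraries, but its mean was below the minimum of 1 FPKM. A part of other cells in the matrix difference was not tested. TWIST1, a mesenchymal transcription factor, was at 10.1 and 11.9 FPKM in the near-control pair and 35.4 and 34.9 in the distant pair, while ZEB1 was at 33.1 and 32.0 against 19.6 and 19.4 FPKM.

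**Figure D3:**
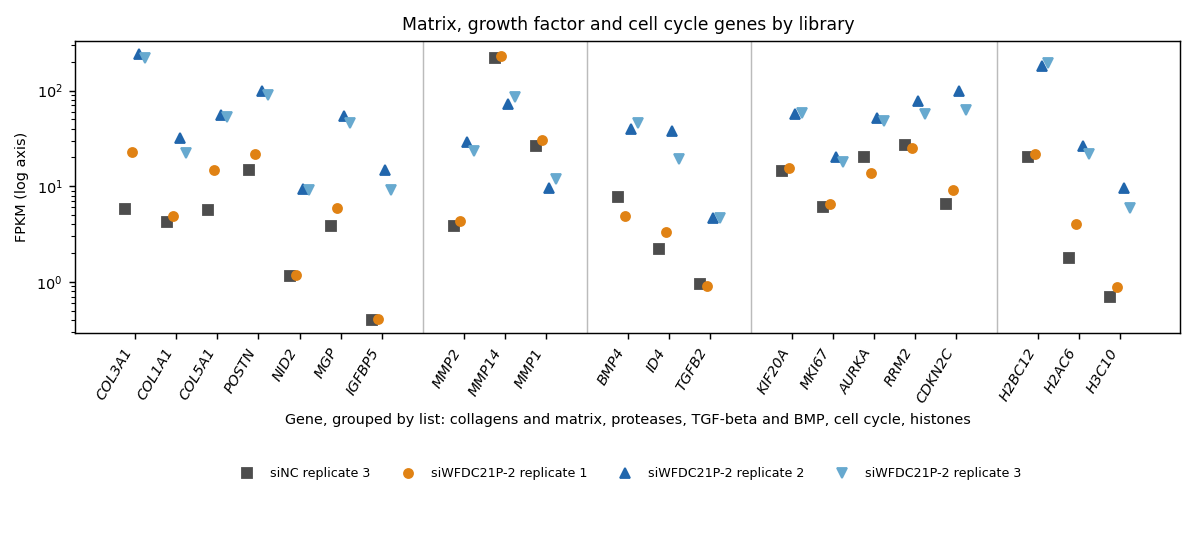
FPKM of matrix, protease, growth factor, cell cycle and histone genes on a log axis, with 1 symbol for each of the 4 libraries and grey lines between the gene groups. The blue triangles (distant pair) lie above the square and circle (near-control pair) for every gene shown except the proteases MMP14 and MMP1.

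Genes of mitosis were higher in the distant pair. Of 52 tested G2/M genes, 13 were at least 2-fold higher and 0 lower, 46 were higher without overlap (41.0% over all tested genes) and 0 lower (31.1%), and the median was 0.74. KIF20A (ENSG00000112984; hg38, chromosome 5, 138178719 to 138187715), a mitotic kinesin, was at 14.3 and 15.4 FPKM in the near-control pair and 56.4 and 59.0 in the distant pair, 3.88-fold (95% counting interval 3.69 to 4.08). The proliferation marker MKI67 was at 6.01 and 6.46 against 20.3 and 18.1 FPKM, the mitotic kinase AURKA at 20.1 and 13.7 against 52.4 and 48.7 FPKM, and the centromeric histone CENPA at 5.26 and 6.81 against 17.5 and 19.1 FPKM.

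DNA replication genes differed less and not in 1 direction. Of 47 tested, 2 were at least 2-fold higher and 0 lower, 28 were higher (41.0% over all tested genes) and 7 lower (31.1%) without overlap, and the median was 0.36, which was 0.22 without siWFDC21P-2 replicate 1. RRM2, the small subunit of ribonucleotide reductase, was at 26.9 and 25.4 FPKM in the near-control pair and 78.1 and 57.0 in the distant pair. The replication licensing factors CDT1 and CDC6 were lower, at 32.3 and 25.9 against 15.1 and 12.8 FPKM and at 16.5 and 11.6 against 8.98 and 7.42 FPKM.

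Histone genes had the largest median of the lists with at least 10 tested genes, 1.57, with 11 of 18 at least 2-fold higher (2.7% over all tested genes) and 0 lower. That median was 2.67 with a pseudocount of 0.1, 2.56 with a minimum of 5 FPKM and 0.55 with no minimum. The summed level of all listed histone genes was 326 and 266 FPKM in the near-control pair and 496 and 475 in the distant pair. Their share of the recovered reads did not separate the pairs, at 0.078% and 0.062% against 0.072% and 0.065%. H2BC12 (ENSG00000197903; hg38, chromosome 6, 27146418 to 27146798), an H2B gene of the histone cluster, was at 20.3 and 21.6 FPKM in the near-control pair and 183 and 194 in the distant pair, 8.99-fold (95% counting interval 7.93 to 10.2). H2AC6 was at 1.77 and 4.07 against 26.4 and 21.5 FPKM, and H2BC5 at 1.48 and 2.71 against 19.97 and 17.6 FPKM. Reads of near-identical histone genes may be shared among copies, so single members are uncertain, and 30 of 48 listed histone genes were below the minimum of 1 FPKM.

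Among 21 tested CDK inhibitors and quiescence genes 2 were higher and 1 lower. CDKN2C, the p18 inhibitor of CDK4 and CDK6 and also a gene transcribed at G1/S, was at 6.56 and 9.10 FPKM in the near-control pair and 99.7 and 63.4 in the distant pair, 10.3-fold (95% counting interval 9.64 to 11.1).

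Translation and energy genes mostly differed by less than 2-fold. Of 60 tested cytosolic ribosomal protein genes 57 were lower without overlap (31.1% over all tested genes) and 0 higher (41.0%), 2 were at least 2-fold lower, and the median was -0.49. The list took 4.24% and 4.302% of the recovered reads in the near-control pair and 2.71% and 2.92% in the distant pair. RPL12 was at 381 and 377 FPKM in the near-control pair and 178 and 170 in the distant pair. GAS5 and SNHG1, non-coding host genes of small nucleolar RNAs, were at 173 and 185 against 37.2 and 35.03 FPKM and at 79.4 and 85.7 against 16.7 and 15.9 FPKM; both were picked after their values had been seen.

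Nuclear genes of oxidative phosphorylation were higher without overlap in 32 of 41 (41.0% over all tested genes) and lower in 3 (31.1%), with a median of 0.35 and none apart by 2-fold. Glycolytic enzymes were higher in 14 of 17 and lower in 2, against the same shares, with a median of 0.32. The 2 lower ones included the hexokinase HK2, at 50.4 and 48.9 against 25.8 and 28.0 FPKM. PGAM1 was at 90.1 and 110 FPKM in the near-control pair and 215 and 226 in the distant pair, and PKM at 109 and 143 against 283 and 270 FPKM. Hypoxia response genes had a median of 0.00. Of 19 tested, 1 was at least 2-fold higher (2.7% over all tested genes) and 3 were lower (2.01%). VEGFA was at 18.1 and 17.04 against 8.23 and 7.202 FPKM.

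Cholesterol synthesis genes separated siWFDC21P-2 replicate 1 rather than the pairs. The summed level of the list was 1026 FPKM in siNC replicate 3, 1805 in siWFDC21P-2 replicate 1, and 1219 and 1151 in replicates 2 and 3. Of its 28 tested genes 1 was at least 2-fold higher in the distant pair and 0 were lower.

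**Figure D4:**
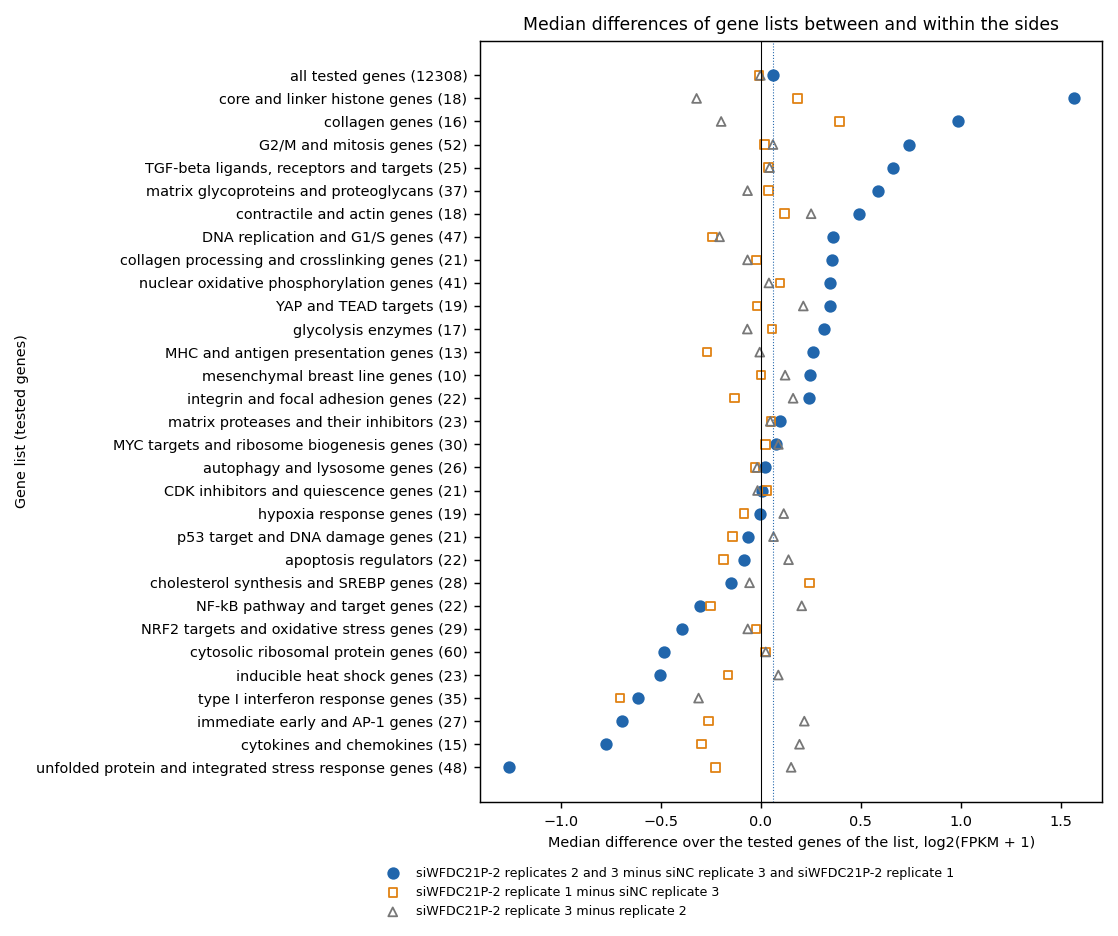
Median difference in log2(FPKM + 1) over the tested genes of each list with at least 10 of them: the distant pair minus the near-control pair (filled circles), siWFDC21P-2 replicate 1 minus siNC replicate 3 (squares) and siWFDC21P-2 replicate 3 minus replicate 2 (triangles). Circles run from -1.26 for the unfolded protein and integrated stress response to 1.57 for histones, and the squares run from -0.71 for the interferon response to 0.40 for collagens.

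Several genes outside these lists had large gaps. RBP4, the plasma carrier of retinol, was at 1.95 and 2.38 FPKM in the near-control pair and 29.4 and 36.7 in the distant pair, 15.2-fold (95% counting interval 12.5 to 18.7). CA4, a membrane carbonic anhydrase, was at 0.633 and 0.735 against 16.3 and 11.1 FPKM. CD24, a surface glycoprotein used to sort breast cancer cells, was at 17.7 and 13.9 against 134 and 94.9 FPKM. In the other direction, the microtubule-associated exchange factor ARHGEF2 was at 97.5 and 82.1 against 14.2 and 14.6 FPKM, and the neuronal pentraxin NPTX1 at 62.2 and 68.6 against 9.87 and 11.1 FPKM.

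siWFDC21P-2 replicate 1 was not identical to the control library. Among the 332 higher genes it was above siNC replicate 3 in 219 and below in 112, and among the 247 lower genes it was below in 169 and above in 78. Its displacement was a median of 5.34% of the distance from siNC replicate 3 to the distant pair for higher genes and 8.0% for lower genes. The calling rule required replicate 1 to lie at least 1 log2 unit from both distant libraries. A small displacement in these genes was therefore favoured in advance and is not a separate result. Within the distant pair, replicate 3 was above replicate 2 in 132 of the higher genes and below in 200.

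By type of gene, 305 of 10477 protein-coding genes were higher and 184 lower. Of 86 tested microRNA genes 10 were lower and 2 higher, and of 61 small nucleolar RNA genes 5 were lower and 1 higher. Over all tested genes 2.01% were lower and 2.7% higher. Values for these short RNAs, many of which lie inside host genes, cannot be separated from reads of the host, since the strand setting is not given in the sources used here.

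The labelled comparison of the 3 siWFDC21P-2 libraries with siNC found no gene. Over 13014 genes listed in both gene tables and 9 libraries, limma with the gene table as a term called 0 genes for siWFDC21P-2 against siNC (0.0%) at an adjusted p of 0.05, and 190 had an unadjusted p under 0.05. With that term, the comparison sets the 3 siWFDC21P-2 libraries against siNC replicate 3 alone. The spread was estimated over all 9 libraries with no term for their identity. It therefore includes differences between libraries with EPCAM and libraries without GSTP1. A count of 0 in such a fit does not show that levels were unchanged. The difference of KIF20A was 1.32 with a standard error of 0.94 and that of HSPA6 was -4.98 with a standard error of 1.97, at a limma adjusted p of 1.00 for both. Leaving out siWFDC21P-2 replicate 1 sets the distant pair against siNC replicate 3. Those libraries were placed on their sides by correlation over all genes, so that fit is no test of their difference.

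The genes that were apart were then read in the siWFDC21P-1 comparison, whose libraries did not enter the choice of the pairs. limma called 0 of 13014 genes (0.0%) for siWFDC21P-1 against siNC, and 708 had an unadjusted p under 0.05, of which 489 were higher. Of the 332 higher genes 289 were tested there, with a median difference of 0.11 against 0.02 over all genes, and 177 were higher and 112 lower with siWFDC21P-1. Of the 247 lower genes 224 were tested, with a median of -0.10, and 91 were higher and 133 lower. Over all 13014 genes 6796 were higher and 6218 lower with siWFDC21P-1, and the direction counts are to be read against these. Unadjusted limma p-values under 0.05 were reached by 7 of the 289 and 1 of the 224, smaller shares than the 708 of 13014 over all genes. The siWFDC21P-1 libraries and siNC replicates 1 and 2 are split unequally between libraries with EPCAM and libraries without GSTP1, and the part of that split in the comparison was not tested.

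The genes that were apart were also set beside the other 5 libraries. Their calling favours extreme values in the pairs, and the shares over all genes were not counted. The counts that follow are thus a description and give no result about either pair. Of 242 lower genes listed in both tables, both near-control libraries were above all 5 others in 179, and both distant libraries were below all 5 in 52. Of 320 higher genes, both distant libraries were above all 5 in 164 and both near-control libraries below all 5 in 106. HERPUD1 was at 10.2 to 18.1 FPKM in the 5 libraries, just above the distant pair, and H2BC12 at 72.9 to 352 FPKM, around it. COL3A1 was at 0 to 2.02 FPKM and POSTN at 0 to 0.00651 FPKM, below all 4 libraries.

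**Figure D5:**
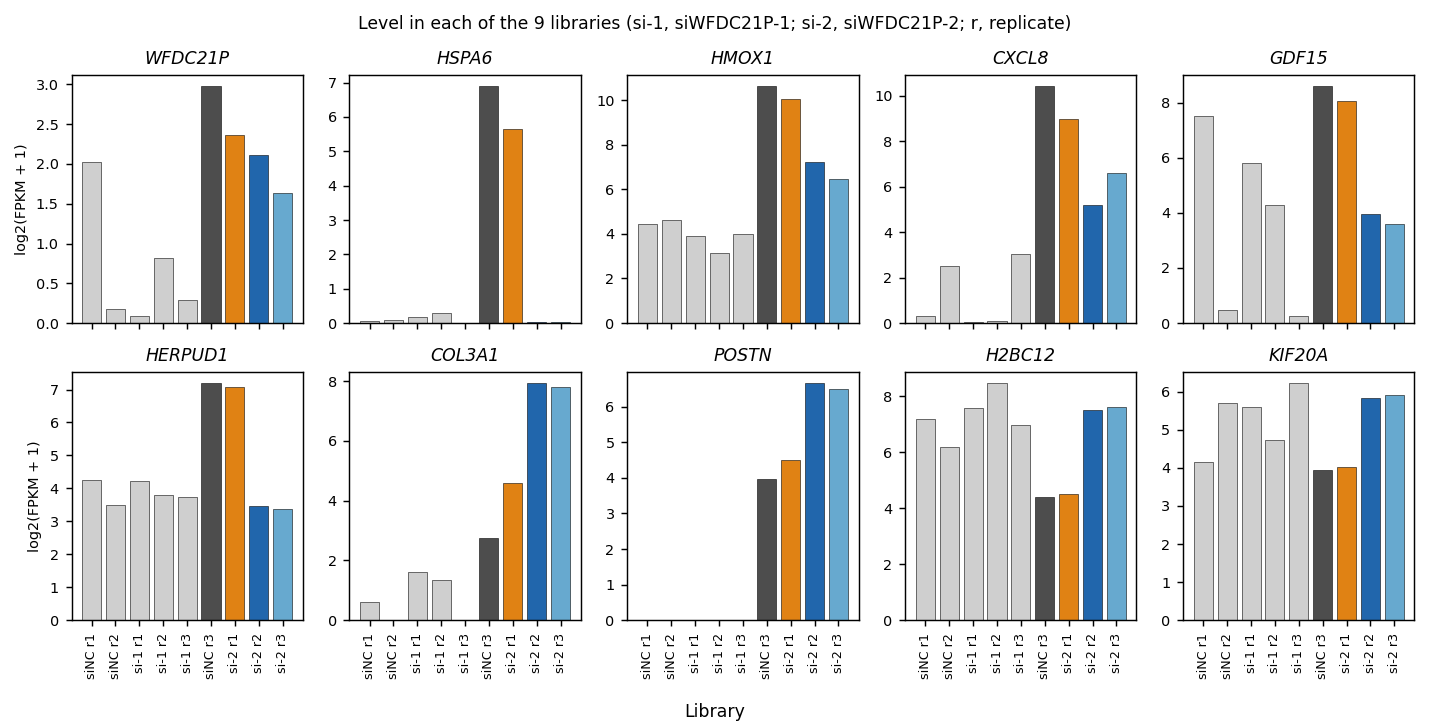
log2(FPKM + 1) of 10 genes in each of the 9 libraries, 1 bar per library, starting at 0, with its own vertical axis for each gene. Grey bars are the 5 libraries outside the comparison, dark grey siNC replicate 3, orange siWFDC21P-2 replicate 1, and blue siWFDC21P-2 replicates 2 and 3. For HSPA6 and HERPUD1 the near-control pair is above all other bars, and for COL3A1 and POSTN the distant pair is above all others.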

How the data were processed

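RNA-seq was made from 9 libraries, and the authors deposited FPKM values per gene in 2 gene tables, 1 with the 4 libraries described here and 1 with the other 5. The submitters' processing notes name the hg38 build and, with no stated role, HTSeq 0.6.0, Bowtie2 2.2.3 and HISAT2 2.1.0. Strand settings are not given in the sources used here.

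FPKM values were compared as log2(FPKM + 1), with a pseudocount of 1, over those 12308 of 29104 listed genes whose mean reached 1 FPKM. A gene was apart at a gap of at least 1 log2 unit between the pairs. Whole reads were recovered with exon lengths from GENCODE 29, and 93.2% to 93.5% of nonzero values came out whole within 0.02 reads. They gave the 95% exact binomial intervals, which cover counting error only. The labelled groups were compared with limma 3.58.1 (R 4.3.3) on log2(FPKM + 1), with the gene table as a term, over 13014 genes, with Benjamini-Hochberg adjustment at 0.05. Other values came from Python 3.11.15 and scipy 1.17.1. The scripts were tested on simulated data.

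Genes were named if they were WFDC21P or the 4 markers HSPA6, HMOX1, CXCL8 and COL3A1, among the 15 protein-coding genes with the largest gaps in each direction, or among the 4 largest gaps of a list in each direction without overlap between the pairs. Genes given beyond that rule, such as HSPA5, ASNS, XBP1, GAS5, SNHG1 and the markers of other cell types, were chosen after their values were seen. The members and the lists were chosen with earlier results of these data known. The replicates may be technical, so p-values measure only the spread between these samples. Alternatives were another pseudocount, filter, gap and scaling, a replicate block, and leaving out each library.

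The values of some list members are not reported here, although the counts and medians of their lists include them.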

Additional observations from a re-analysis of the deposited data

Results flagged for a closer look

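Of 116 named genes checked, 5 lay in opposite directions from their controls with the 2 siRNAs: every siWFDC21P-2 library lay on one side of siNC replicate 3, and every siWFDC21P-1 library lay on the other side of both siNC replicates 1 and 2. The differences between the siRNAs were not tested, and they set libraries of 2 gene tables that stand apart beside each other. Many of the named genes were chosen for their gaps between the pairs, which favours the siWFDC21P-2 part of this rule in advance. The share over all genes was not counted, so the 5 genes are a description only. On the log2(FPKM + 1) scale the effect of PLOD2 was 1.32 with siWFDC21P-2 and -0.48 with siWFDC21P-1, a difference of 1.79. SPARC had 0.95 and -1.05, a difference of 2.00. THY1 had 0.84 and -0.01, a difference of 0.86, so that its second effect was close to 0. CA4 had 2.13 and -0.05, a difference of 2.18, and its second effect was also close to 0. VEGFA had -0.79 and 0.26, a difference of -1.05. No group held enough libraries to look for a single outlying one.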

How the results depend on the processing

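The 332 higher and 247 lower genes became 520 and 379 with a pseudocount of 0.1, 202 and 162 with a mean of at least 5 FPKM, 27 and 35 with a gap of at least 2 log2 units, and 5051 and 3830 with any gap above 0. Leaving out each library gave 447 to 523 higher and 290 to 415 lower genes, since a gap over fewer libraries is easier to pass: without siWFDC21P-2 replicate 1 they were 523 and 375, and without siWFDC21P-2 replicate 3 there were 415 lower. Rescaling the libraries to a common level gave 271 higher and 281 lower genes and moved the median of all genes from 0.06 to -0.004. Of 88 named genes that were apart, 84 stayed apart under that scaling and 4 did not, and 0 overlapped between the pairs. The median changed sign under at least 1 setting for the metallothionein, p53, hypoxia, apoptosis, autophagy, MHC, CDK inhibitor, cholesterol and epithelial lists.

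The limma count of 0 for siWFDC21P-2 against siNC was 14 without the filter, all lower, and 0 to 3 when each library was left out, with 3 without siWFDC21P-2 replicate 1. The fit without siWFDC21P-2 replicate 1 sets the distant pair, chosen by correlation, against siNC replicate 3, so its count is no test of their difference. Without siNC replicate 3 the comparison of siWFDC21P-2 with siNC could not be estimated. With a replicate block limma called 0 genes for siWFDC21P-1 and 0 for siWFDC21P-2, with 629 and 403 at an unadjusted p under 0.05. Libraries with the same number had correlations of their deviations from -0.68 to 0.67, so the numbers are not shown to pair the samples. The WFDC21P difference of 0.31 between siWFDC21P-2 and siNC on the log2 scale reversed to -0.17 in FPKM without a log, and the cause was not tested. With 2 libraries in each pair and 1 read of HSPA6 in each distant library, levels near 0 have little precision.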
